A study of Glycine max with 63 samples.

Results

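The 100 genes described here were those with the strongest mid-course peak in one greenhouse series of developing soybean (Glycine max) embryos, the series whose deposited tables carry the code Wt. Levels were read as CPM, a gene's estimated read count as a share of its library's total, per 1 M counts. A gene entered when its mean over 3 libraries at both T3 and T4 was above its means at T2 and T5 and the lower of the T3 and T4 means was at least 10 CPM. The 100 genes were the highest by the log2 ratio of the lower mid-course mean to the higher end mean, after 1 CPM was added to each. Of 55897 soybean genes, 9812 reached that level and 558 of these had the shape. The members were thus selected on their Wt values, and all Wt values below are a description and carry no test.

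A soybean embryo passes from cell division and pattern formation into seed filling, when the cotyledons take up sugars and amino acids and lay down storage protein and oil, and then into maturation and drying. Many transcripts are transient along this course, because the enzymes, transporters and regulators of filling are replaced by those of late maturation. WRI1 is a transcription factor that activates genes of glycolysis and fatty acid synthesis in seeds. DGAT1 is the enzyme that adds the last acyl chain to make triacylglycerol, the storage oil. The study expressed the Arabidopsis versions of both in soybean seeds to ask how oil and carbohydrate change.

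RNA was sequenced from 63 libraries in 21 groups of 3. The field groups, 27 libraries, were seeds bulked from plots of the cultivar Thorne (WT), of line W-1 and of line WD-1, each at the reproductive stages R5, R5/6 and R6, which run from the start of seed growth to full-size green seed. The greenhouse groups, 36 libraries, were single embryos peeled free of seed coat and endosperm, 1 per plant, and their labels name Thorne, WD-1 and WD-2 at 24, 27, 30 and 33 days after pollination (DAP). By their counts, the field lines differed in the transgenes AtWRI1 and AtDGAT. All W-1 libraries had AtWRI1 and no count of AtDGAT. All WD-1 libraries had both, with AtDGAT at 0.201 to 33.2 CPM. In W-1, AtWRI1 was 1.86 to 6.33 CPM at R5 and 106 to 150 CPM at R5/6. Field WT had at most 0.398 CPM of AtWRI1 and no count of AtDGAT. The sources used here give neither the promoter that drives the transgenes nor the number of events behind each line.

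In the greenhouse the labels and the codes of the deposited tables disagree. The codes name 3 series, Wt, G and R, at T2 to T5, and each coded group was deposited whole under 1 label. Wt-T2, Wt-T3, Wt-T4 and Wt-T5 were labelled Thorne at 24 DAP, WD-1 at 24 DAP, WD-2 at 24 DAP and Thorne at 27 DAP. G-T2 to G-T5 were labelled WD-1 at 27 DAP, WD-2 at 27 DAP, Thorne at 30 DAP and WD-1 at 30 DAP. R-T2 to R-T5 were labelled WD-2 at 30 DAP, Thorne at 33 DAP, WD-1 at 33 DAP and WD-2 at 33 DAP. The transgene AtWRI1 was at most 0.408 CPM in all 12 Wt libraries and 39.0 to 324 CPM in all 12 R libraries. In G it reached up to 320 CPM, and replicate 2 of G-T5 had no count of AtWRI1 or AtDGAT. Apart from that library the transgene levels followed the codes, and the codes are used below. If the labels were right, each step from one T to the next would also be a change of genotype or day, and every direction below rests on the codes.

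Library totals ran from 1.17 to 36.2 M counts in the field and from 3.02 to 23.6 M in the greenhouse, with 10 and 5 libraries under 10 M. One gene, GLYMA_13G021200, took 3.67 to 40.4% of all counts in R (median 34.8%), 1.03 to 16.7% in G and 1.86 to 16.6% in Wt. Such a share lowers the CPM of every other gene. Tests and levels outside the rule therefore used TMM scaling, which rests on the bulk of genes, and levels on that scale are called TMM CPM. A gene with no count in a field library may still stand at up to 0.0828 to 2.56 CPM, depending on depth, and in a greenhouse library at up to 0.127 to 0.995 CPM, counting error only. None of the soybean identifiers matched the gene table at hand, so no names, roles or sequences can be given, and markers of embryo and seed coat could not be read. In whole seeds and embryos, fewer cells of a type and less RNA per cell cannot be told apart.

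The Wt peak of these genes was low. The lower mid-course mean exceeded the higher end mean by 1.06-fold in the weakest member, 1.08-fold in the median member and 1.21-fold in the strongest (1 CPM added). Set against the pooled SD of the 4 Wt groups, this gap was 0.222 SD at the lowest, 0.579 SD at the median and 1.52 SD at the highest. It passed 1 SD in 10 members and 2 SD in 0. The higher end was T5 in 82 members and T2 in 18, so for most genes the fall after T4 was the shallow side. On the CPM scale the highest mean was at T3 in 62 members and at T4 in 38, and on the TMM CPM scale at T3 in 24 and at T4 in 76.

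**Figure D1:**
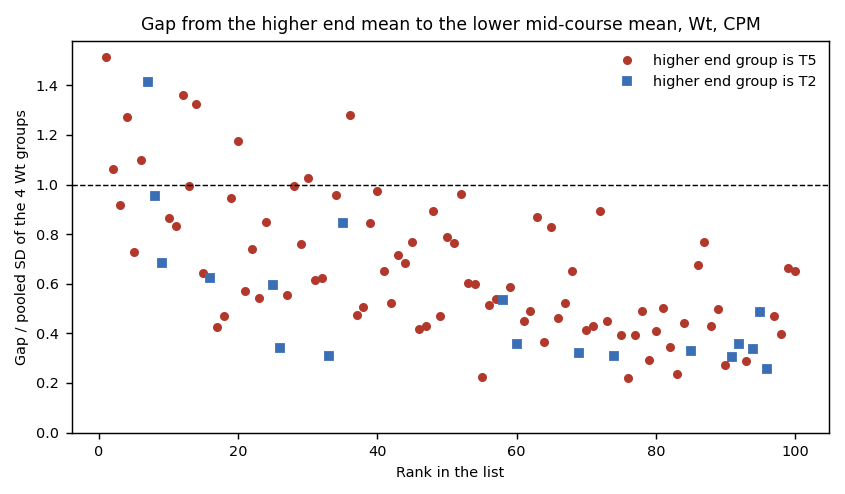
Gap between the lower mid-course mean and the higher end mean in Wt, divided by the pooled SD of the 4 groups of 3 libraries (vertical axis), for the 100 members by rank (horizontal axis). Colour and shape give the end group with the higher mean, and the dashed line marks 1 SD, which 10 members pass.

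GLYMA_13G182000 ranked first. Its CPM was 10.7, 14.9 and 14.4 at Wt-T2, 14.9, 18.8 and 20.7 at Wt-T3, 15.7, 16.7 and 18.4 at Wt-T4, and 14.8, 12.8 and 13.8 at Wt-T5. The lowest mid-course library lay at the level of the highest end library. GLYMA_15G182600, the most abundant of the 10 highest ranked genes, had 69.6, 90.2 and 86.1 CPM at Wt-T2 and 115, 93.4 and 107 at Wt-T3. It had 111, 120 and 83.6 CPM at Wt-T4 and 97.5, 91.5 and 73.2 at Wt-T5, so that the T4 library with 83.6 lay below 4 of the 6 end libraries. GLYMA_16G165000 was the 1 member whose 6 mid-course libraries, 18.9 to 20.1 CPM, all lay above its 6 end libraries, which reached 18.2 CPM. Among all 9812 genes at the level that pattern was found in 1 gene, 0.0102%.

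**Figure D2:**
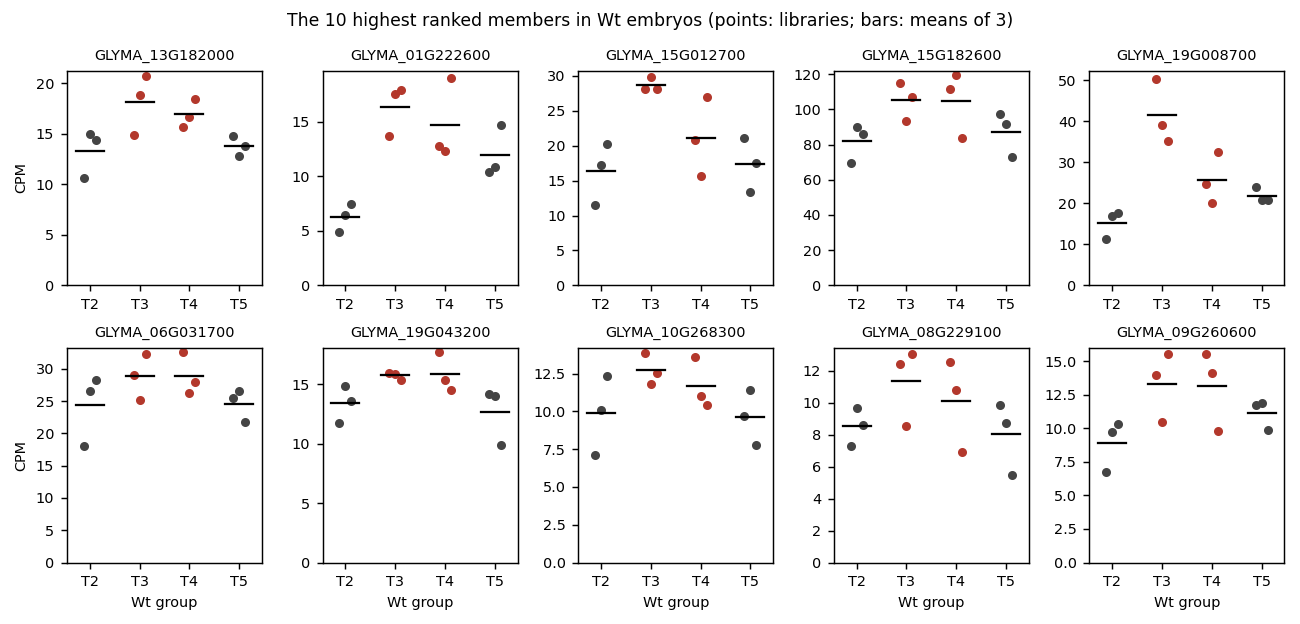
CPM of the 10 highest ranked members in the 12 Wt libraries (vertical axes, from 0; horizontal axes, T2 to T5). Points are libraries, red at T3 and T4, bars are means of 3, and in all 10 panels red and grey points overlap.

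A few members had a deep early side. In 6 members the Wt-T2 mean was at most 0.5 times the lower mid-course mean, and the ratio of the highest to the lowest Wt mean ran from 1.08 through a median of 1.31 to 6.02. GLYMA_06G192100 had 5.76, 5.39 and 5.53 CPM at Wt-T2 against 29.2, 34.7 and 36.5 at Wt-T3, 32.5, 31.5 and 31.8 at Wt-T4 and 33.5, 24.9 and 29.0 at Wt-T5. It rose steeply between T2 and T3 and then stayed near one level, with T5 overlapping both mid-course groups. GLYMA_19G008700 had 11.3, 16.9 and 17.6 CPM at Wt-T2, 50.4, 39.2 and 35.3 at Wt-T3, 24.8, 19.98 and 32.6 at Wt-T4 and 23.9, 20.8 and 20.8 at Wt-T5. Its T3 libraries stood above all others, while T4 and T5 overlapped.

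The members were mostly genes of low abundance. The Wt-T3 mean was under 20 CPM in 50 members, under 50 CPM in 87 and 100 CPM or more in 3, which were GLYMA_10G251900, GLYMA_19G114700 and GLYMA_15G182600. Their identifiers were spread over all 20 two-digit prefixes of the soybean gene numbering, with at most 10 members, under prefix 15. Only 2 pairs of members had identifiers within 10 places of each other, GLYMA_07G249900 with GLYMA_07G250900 and GLYMA_17G073900 with GLYMA_17G074500. Apart from level and shape, the tables gave no other property that the members shared.

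Around rank 100 the list had no natural edge. Ranks 96 to 100 (GLYMA_07G013500, GLYMA_09G281300, GLYMA_12G122700, GLYMA_15G108200 and GLYMA_20G017500) had log2 scores from 0.0873 to 0.0871. The next 5 genes by rank (GLYMA_03G209400, GLYMA_07G073500, GLYMA_06G103200, GLYMA_20G148400 and GLYMA_12G015700) had 0.0864 to 0.0852. GLYMA_20G148400, just outside, was far more abundant than any member, with means of 38497, 49147, 52910 and 46312 CPM from Wt-T2 to Wt-T5.

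Which genes made the list depended on the scaling. With TMM CPM in the rule, 25 of the 100 genes stayed in the list and 69 kept the shape at the level. Of the 10 highest ranked genes 7 stayed. Leaving out Wt-T4 replicate 3 kept 27 of the 100, and leaving out Wt-T5 replicate 3 kept 39. The other leave-outs past the factor of 1.5 were Wt-T4 replicate 1 with 54, Wt-T5 replicate 2 with 55, Wt-T5 replicate 1 with 57 and Wt-T4 replicate 2 with 66. The genes GLYMA_13G182000, GLYMA_15G182600, GLYMA_06G031700, GLYMA_19G043200, GLYMA_09G260600 and GLYMA_15G135200 stayed in the list in all 12 leave-outs, and 45 members kept the shape in all 12.

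The G and R embryos and the field seeds were not used to choose the genes. On the TMM CPM scale the median member rose between T2 and T3 in G and in R, and between R5 and R5/6 in the field.

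**Figure D3:**
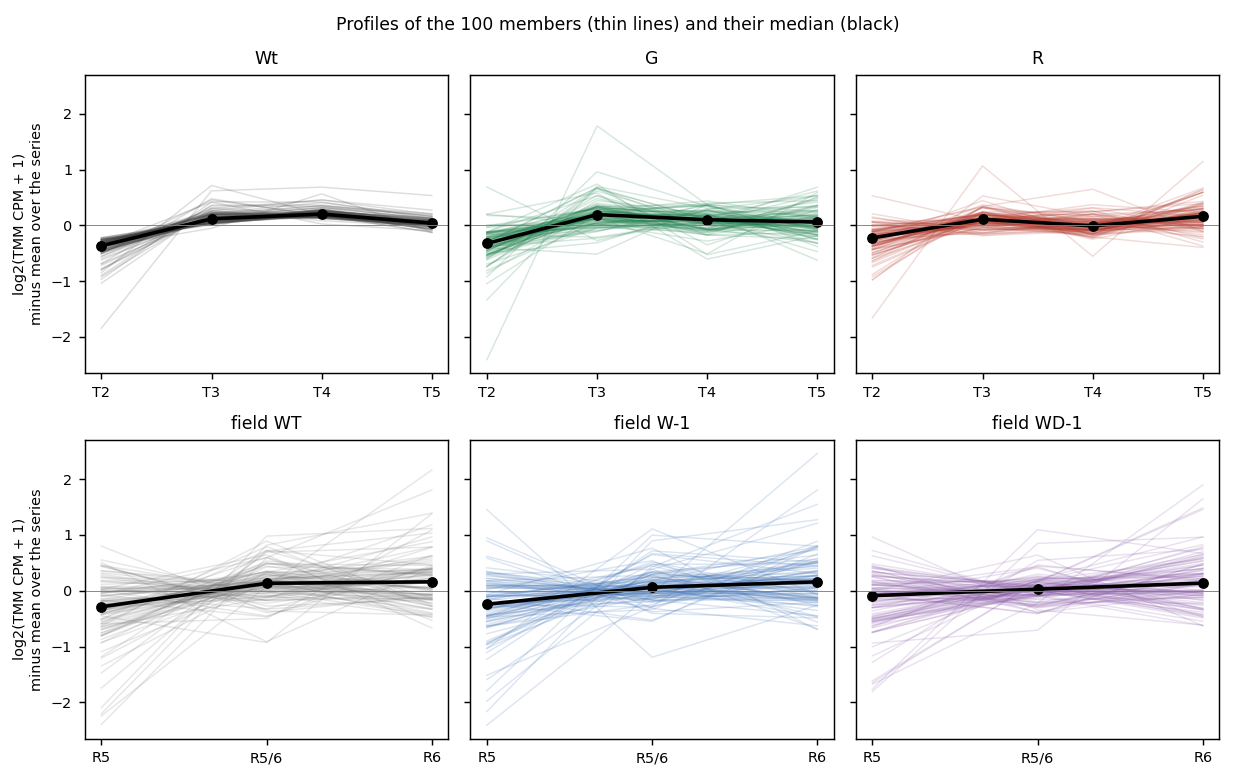
Profiles of the 100 members in the 6 series: log2(TMM CPM + 1) of each group mean minus the mean over the series (vertical axes) by T or stage (horizontal axes). Thin lines are genes and the black line is their median, which lies lowest at the first point of every series (-0.37 in Wt, -0.32 in G, -0.23 in R, -0.29 in field WT, -0.24 in W-1 and -0.09 in WD-1).

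In G embryos the mean of T3 and T4 was above the mean of T2 and T5 more often in members than in genes in general. The contrast averages both ends, so it can pass without a fall after T4. With edgeR's quasi-likelihood test and Benjamini-Hochberg adjustment over all genes, 46 of 100 members were higher at an adjusted p under 0.05, against 13.3% of all genes tested and 24.3% of the genes at the rule's level. None was lower in edgeR, against 10% of all genes and 6.64% at the level. The median log2 difference was 0.29 in the members, 0.13 in genes at the level and 0.04 in all genes. Leaving out G-T4 replicate 1 gave 1 lower member and leaving out G-T5 replicate 3 gave 2. With total counts in place of TMM, 2 members were higher and 1 lower, a scaling that moved the median of all genes by -0.45 (log2).

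The first step showed the higher counts. Between G-T2 and G-T3, 64 members rose, against 17% of all genes and 28.1% of genes at the level, and 1 fell, against 13.9% and 7.69%. The members' median log2 change was 0.52, that of genes at the level 0.17 and that of all genes 0.04. GLYMA_06G192100 went from 0.255, 0.654 and 0.269 TMM CPM at G-T2 to 22.9, 24.8 and 25.6 at G-T3, a log2 change of 5.99 ± 0.61 (SE, adjusted p = 8.55e-09 in edgeR). The groups did not overlap, and at G-T4 the gene stood at 3.68, 10.9 and 11.1. With total counts only 3 members rose and 1 fell, with a shift of -0.60 in the median of all genes.

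GLYMA_05G237900 and GLYMA_19G008700 followed as the next largest rises. GLYMA_05G237900 had 3.03, 3.89 and 2.35 TMM CPM at G-T2, 12.6, 15.6 and 14.1 at G-T3, 7.69, 6.88 and 11.97 at G-T4 and 4.44, 4.10 and 6.33 at G-T5. It rose by a log2 of 2.20 ± 0.23 (edgeR adjusted p = 1.02e-08) and then fell by 0.81 between T4 and T5 (SE 0.23, adjusted p = 0.0193). GLYMA_19G008700 had 9.23, 12.3 and 5.23 at G-T2 and 38.0, 38.5 and 42.4 at G-T3, a log2 rise of 2.16 ± 0.31 (adjusted p = 3.06e-06). At G-T5 its libraries were scattered from 15.8 to 47.9, and the second step was 0.02 ± 0.30 (adjusted p = 0.982).

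The second step in G had no common direction. Between G-T4 and G-T5, 8 members rose and 5 fell, against 5.49% and 5% of all genes and 5.64% and 7.23% of genes at the level, and the median change was 0.00 in the members and -0.08 in genes at the level. The falls were GLYMA_08G059700, GLYMA_05G237900, GLYMA_07G013500, GLYMA_20G017500 and GLYMA_14G065500. The rises included GLYMA_06G166800 (log2 1.13 ± 0.28, adjusted p = 0.00735 in edgeR), GLYMA_18G242400 (0.75 ± 0.25) and GLYMA_19G173300 (0.68 ± 0.12). These counts rested on single libraries: without G-T5 replicate 2, which lacks the transgenes, 5 rose and 1 fell. Without G-T5 replicate 3, 12 fell. Without G-T5 replicate 1, 4 rose and 1 fell, without G-T4 replicate 2, 5 rose and 3 fell, and without G-T4 replicate 3, 1 fell. Total counts gave 1 rise and 0 falls, with a shift of 0.29.

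A rise followed by a fall, each past the test, was found in 3 members in G: GLYMA_05G237900, GLYMA_14G065500 and GLYMA_20G017500. The share was 0.874% in all genes and 1.62% in genes at the level, near that of the members. Without G-T5 replicate 1, G-T5 replicate 2 or G-T4 replicate 3, only 1 member fell at the second step. With any of these libraries left out, at most 1 of the 3 genes therefore kept both calls. GLYMA_20G017500 had 12.8, 13.4 and 12.4 TMM CPM at G-T2, 21.7, 21.0 and 20.6 at G-T3, 19.7, 23.5 and 25.2 at G-T4, and 14.6, 14.1 and 17.8 at G-T5. Every mid-course library was above every end library. It rose by a log2 of 0.71 ± 0.15 (edgeR adjusted p = 0.000423) and then fell by 0.55 (SE 0.15, adjusted p = 0.0155). GLYMA_14G065500 rose by 0.36 ± 0.14 (adjusted p = 0.0487) and fell by 0.51 (SE 0.15, adjusted p = 0.0218). GLYMA_08G059700 went the other way, falling at both steps, from 11.3, 12.6 and 14.8 TMM CPM at G-T2 to 6.19, 5.89 and 6.33 at G-T3 and from 8.13, 11.1 and 7.68 at G-T4 to 4.70, 4.45 and 4.63 at G-T5.

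By the means alone, the G values at T3 and T4 were both above those at T2 and T5 in 44 members on the TMM CPM scale and in 8 on the CPM scale, against 34.1% and 2.2% of genes at the level. All 6 mid-course libraries were above all 6 end libraries in 7 members on the TMM CPM scale and in 0 on the CPM scale, against 3.9% and 0.051%. The reverse, both mid-course means below both end means, held in 1 member on the TMM CPM scale and in 29 on the CPM scale. All 6 mid-course libraries were below all 6 end libraries in 0 and 5 members. Shares of other genes are not given for these reverse counts. On the CPM scale the highest G mean was at T2 in 26 members and at T5 in 40, against 65.8% and 21.36% of genes at the level.

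In R embryos the first step was again a rise. It passed the test in fewer members than in G, as was also so for genes in general. Between R-T2 and R-T3, 21 members rose and 0 fell, against 1.53% and 1.06% of all genes and 3.1% and 0.968% of genes at the level. The median change was 0.36 in the members, 0.08 in genes at the level and 0.01 in all genes. GLYMA_06G192100 had 0.665, 0.248 and 0.368 TMM CPM at R-T2 and 7.76, 6.36 and 11.2 at R-T3, a log2 rise of 4.41 ± 0.86 (edgeR adjusted p = 0.00262). Few reads lay behind its R-T2 values, so the size of this rise is uncertain. The gene dropped to 1.43, 1.90 and 2.87 at R-T4 and stood at 11.7, 11.1 and 4.01 at R-T5. Leaving out R-T2 replicate 1 left 8 rises, R-T3 replicate 3 left 9 and R-T2 replicate 2 left 10. Fitting R alone gave 13 rises, and total counts gave 3, with a shift of 0.16.

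Of the members that rose at the first step, 15 did so in both G and R, against 1.08% of all genes and 2.41% of genes at the level. They included GLYMA_01G222600, GLYMA_19G008700, GLYMA_10G268300, GLYMA_15G135200 and GLYMA_05G239400. GLYMA_05G239400 had 5.64, 7.83 and 6.01 TMM CPM at G-T2 and 10.4, 8.27 and 9.39 at G-T3. In R it had 5.57, 5.54 and 5.22 at T2 and 11.1, 9.55 and 10.8 at T3, then 12.8, 12.7 and 12.7 at T4. Neither pair of groups overlapped, and the log2 rises were 0.53 ± 0.15 in G (edgeR adjusted p = 0.00728; -0.07 with total counts) and 0.94 ± 0.19 in R (adjusted p = 0.0029).

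The mid-course level in R passed the test in 3 members. The mean of T3 and T4 was above the mean of T2 and T5 in GLYMA_15G182600 (log2 1.00 ± 0.14, edgeR adjusted p = 0.000518), GLYMA_05G239400 (0.57 ± 0.13, adjusted p = 0.0394) and GLYMA_19G173300 (0.47 ± 0.09, adjusted p = 0.00865). The share was 0.124% of all genes and 0.194% of genes at the level. No member was lower in edgeR, against 0.0955% and 0.122%. In GLYMA_05G239400 the change from R-T4 to R-T5 did not pass the test (log2 -0.19 ± 0.17, edgeR adjusted p = 0.55). None of the 3 was among the 46 higher in G, and 3 genes are too few to read this as a difference. GLYMA_15G182600 had 77.4, 91.4 and 75.2 TMM CPM at R-T2, 121, 279 and 172 at R-T3, 199, 240 and 270 at R-T4, and 104.6, 172 and 141 at R-T5. It was the 1 member in R, against 0.00579% of all genes and 0.0102% of genes at the level, that rose at the first step (log2 1.23 ± 0.21, adjusted p = 0.000492) and fell at the last (by 0.76, SE 0.20, adjusted p = 0.0315; 0.08 with total counts). Leaving out R-T5 replicate 1 left 1 higher member, and total counts left 0, with a shift of -0.38. DESeq2 called 5.

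GLYMA_19G173300 was highest at R-T3, and its last step did not pass the test (log2 -0.16 ± 0.12, edgeR adjusted p = 0.472). Its R libraries had 37.6, 36.6 and 36.2 TMM CPM at T2, 64.6, 61.9 and 63.2 at T3, 54.5, 58.1 and 55.4 at T4 and 46.6, 53.3 and 50.3 at T5. All 6 mid-course libraries were above all 6 end libraries, as in 2 members in all on the TMM CPM scale, against 0.316% of genes at the level. In G the same gene was highest at T5, at 86.0, 97.0 and 65.0.

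Between R-T4 and R-T5, 9 members rose and 1 fell, against 2.57% and 1.17% of all genes and 5.88% and 0.754% of genes at the level, with a median of 0.19 in the members, 0.14 in genes at the level and 0.04 in all genes. GLYMA_06G192100 (log2 2.36 ± 0.65), GLYMA_13G258500 (0.88 ± 0.21) and GLYMA_15G135200 (0.83 ± 0.21) were the largest rises, with edgeR adjusted p of 0.0353, 0.0201 and 0.0236. GLYMA_13G258500 went from 70.0, 89.0 and 83.3 TMM CPM to 163, 155 and 124. GLYMA_13G021200 took 35.5, 39.8 and 40.4% of counts at R-T4 and 3.67, 31.5 and 29.5% at R-T5, and its part in these rises was not tested. Without the 2 R libraries in which that gene took under 20%, 1 member rose and 0 fell. Leaving out R-T4 replicate 1, R-T5 replicate 1 or R-T5 replicate 2 left 1 rise, and leaving out R-T4 replicate 2 or 3 left 2. The fall was lost without any R-T4 library, R-T5 replicate 1 or R-T5 replicate 3, and in the fit of R alone. Total counts gave 64 rises and 0 falls, with a shift of 0.92.

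By the means alone, the R values at T3 and T4 were both above those at T2 and T5 in 20 members on the TMM CPM scale and in 0 on the CPM scale, against 12.7% and 0.0917% of genes at the level. The highest R mean on the TMM CPM scale was at T5 in 50 members, close to the 48.8% of genes at the level. It was at T3 in 32 members, against 16.62% of genes at the level.

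In a direct test of R minus G, the members' counts stood near those of genes of like level. For the mid-course level 18 members were lower and 3 higher in R, against 7.16% and 5.37% of all genes and 15.1% and 4.81% of genes at the level. The median log2 difference was -0.27 in the members and -0.16 in genes at the level. GLYMA_05G237900 had the largest shortfall past the test, by a log2 of -1.13 ± 0.25 (edgeR adjusted p = 0.00328): in R it was 3.16, 4.84 and 4.30 TMM CPM at T2, 8.26, 7.82 and 7.28 at T3, 6.71, 4.39 and 7.27 at T4, and 7.66, 7.75 and 1.78 at T5. GLYMA_15G182600 was the clearest in the other direction, at 1.14 ± 0.20 (adjusted p = 0.000469). In G it had 82.9, 80.8 and 74.2 at T2, 84.0, 67.3 and 67.8 at T3, 103, 144 and 161 at T4 and 149, 163 and 144 at T5. Leaving out R-T2 replicate 3 gave 11 lower and leaving out G-T5 replicate 3 gave 28 lower and 6 higher, while R-T4 replicate 1 or R-T5 replicate 2 left out gave 5 higher. Total counts gave 0 in each direction, with a shift of 0.07.

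Beside Wt, the G and R levels of some members, picked after their values were seen, were low, which is given without a test. High Wt means at T3 and T4 were part of the choice of members, which by itself favours a higher Wt level there. The number of members lower in G or R than in Wt is not given. At T3 GLYMA_05G237900 had 27.995, 34.3 and 32.3 TMM CPM in Wt, 12.6 to 15.6 in G and 7.28 to 8.26 in R, with no overlap. GLYMA_09G203500 had 65.1, 53.2 and 53.2 in Wt, 26.5, 26.6 and 30.4 in G and 22.2, 29.4 and 44.0 in R. GLYMA_15G182600 went the other way at T4, with 87.5, 97.9 and 76.1 in Wt, 103, 144 and 161 in G and 199, 240 and 270 in R.

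**Figure D4:**
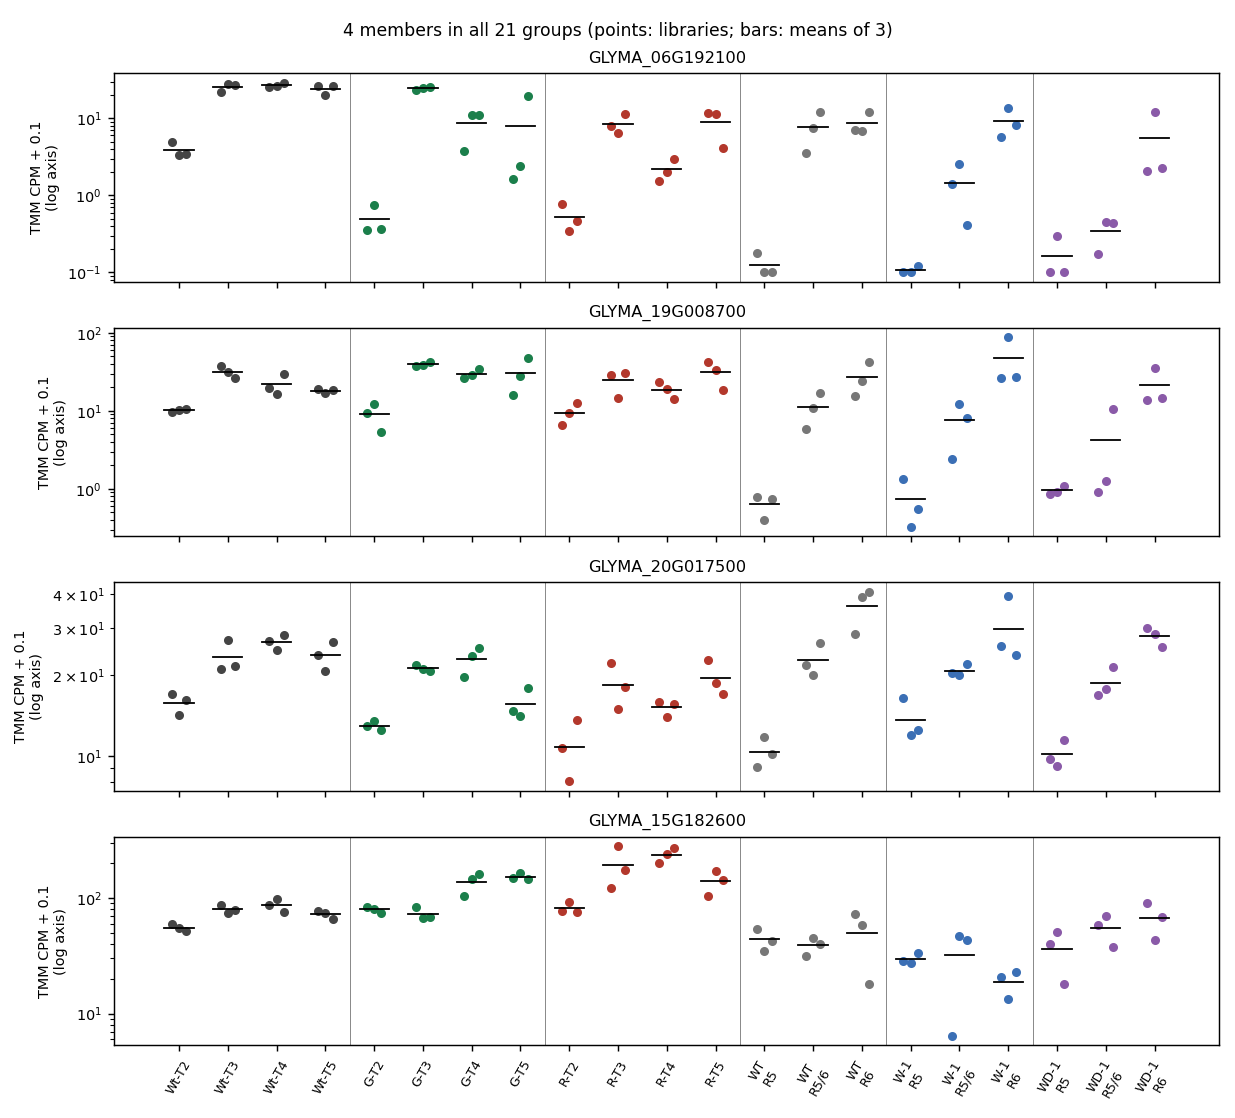
TMM CPM plus 0.1 (vertical axes, log scale) of 4 members in all 21 groups (horizontal axis). Points are libraries and bars means of 3. GLYMA_06G192100, GLYMA_19G008700 and GLYMA_20G017500 start low in every series, and GLYMA_15G182600 is highest in R at T3 and T4.

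In field WT seeds the first step, from R5 to R5/6, also held more rises than falls. Of the members 36 rose and 5 fell, against 11.2% and 12.5% of all genes and 22.5% and 5.99% of genes at the level. The median log2 change was 0.43 in the members, 0.21 in genes at the level and 0.00 in all genes. GLYMA_06G192100 had 0.0779, 0 and 0 TMM CPM at R5 and 3.501, 7.34 and 12.1 at R5/6 (edgeR adjusted p = 2.34e-06). Its R5 libraries held so few counts that no fold is given. GLYMA_19G008700 had 0.682, 0.302 and 0.631 at R5, 5.72, 10.9 and 17.02 at R5/6 and 15.5, 24.2 and 42.3 at R6, a first rise of 4.34 ± 0.72 (adjusted p = 0.00012). GLYMA_11G108300 was the third, with 0.175, 0.742 and 0.194 at R5 and 5.22, 3.14 and 9.25 at R5/6.

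The 5 falls in field WT included GLYMA_06G166800, GLYMA_11G141000 and GLYMA_15G012700, and GLYMA_10G268300 also fell. GLYMA_11G141000 had 18.6, 25.3 and 14.7 TMM CPM at R5 and 6.16, 10.1 and 8.23 at R5/6, a fall by a log2 of 1.26 (SE 0.30, edgeR adjusted p = 0.00336). In G the same gene rose at the first step, from 7.76, 8.47 and 7.21 to 19.3, 18.5 and 18.9. The fall count was 3 without WT R5 replicate 1 or 3, 2 without WT R5 replicate 2 or WT R5/6 replicate 1, and 1 without WT R5/6 replicate 3. With total counts 20 rose and 16 fell, with a shift of -0.46.

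From R5/6 to R6 in field WT, 5 members rose and 4 fell, against 2.1% and 4.97% of all genes and 4.03% and 5.24% of genes at the level. GLYMA_18G242400 rose from 0.233, 0.747 and 0.387 TMM CPM to 6.95, 9.41 and 2.28, a log2 change of 3.51 ± 0.67 (edgeR adjusted p = 0.00231). WT R6 replicates 1 and 2 held only 2.51 and 1.17 M counts (27.2 M in replicate 3), so low levels there rest on few reads. GLYMA_02G203100, GLYMA_02G275900 and GLYMA_20G017500 rose by 1.08, 1.06 and 0.68. GLYMA_06G232300, GLYMA_09G203500, GLYMA_02G143100 and GLYMA_10G165600 fell by 1.37, 1.14, 1.10 and 1.09. Rises were 2, 1, 1 and 3 and falls 2, 1, 3 and 1 without WT R5/6 replicate 1, WT R5/6 replicate 2, WT R6 replicate 2 and WT R6 replicate 3. Without WT R6 replicate 1, 2 fell. Total counts gave 1 rise and 25 falls, with a shift of -0.56.

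A rise and then a fall in field WT passed both tests in 3 members, against 0.56% of all genes and 0.948% of genes at the level. GLYMA_09G203500 had 68.1, 83.9 and 73.0 TMM CPM at R5, 138, 95.7 and 122 at R5/6 and 51.2, 58.5 and 51.9 at R6, so that R5/6 stood above both others. GLYMA_02G143100 had 16.8, 24.4 and 19.5 at R5, 46.3, 62.9 and 44.4 at R5/6 and 20.05, 26.5 and 25.0 at R6. GLYMA_10G165600 had 3.61, 9.09 and 4.29, then 17.98, 17.8 and 18.8, then 9.72, 4.03 and 9.22. None of these was among the 3 in G or the 1 in R, counts too small for the lack of overlap to be read as a difference. The R5/6 mean was above both others in 37 members on the TMM CPM scale and in 42 on the CPM scale, where all genes at the level had 32.66% and 24.4%.

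In the transgenic field lines the counts at the first step stood near those of genes of like level. In W-1, 28 members rose and 5 fell, against 9.71% and 10.6% of all genes and 22.1% and 6.53% of genes at the level. In WD-1, 13 rose and 4 fell, against 4.01% and 3.42% of all genes and 9.69% and 4.52% at the level. The median log2 changes were 0.30 in W-1 and 0.16 in WD-1, where genes at the level had 0.21 and 0.12. GLYMA_15G135200 rose in both, from 3.90, 3.63 and 3.13 TMM CPM at R5 to 21.5, 25.7 and 22.2 at R5/6 in W-1 and from 2.75, 4.32 and 2.25 to 7.27, 12.2 and 20.9 in WD-1. In W-1, dropping replicate 2 or 3 of R5 or replicate 1 of R5/6 gave 18 rises, and dropping replicate 1 or 3 of R5 or any replicate of R5/6 gave 3 falls. In WD-1, dropping replicate 1 or 3 of R5 gave 8 rises and dropping replicate 2 of R5/6 gave 6. Its falls were 2 when replicate 1 of R5 or of R5/6 was dropped, and 1 when replicate 3 of R5 or replicate 2 or 3 of R5/6 was. With total counts W-1 had 11 rises and 29 falls (shift -0.68), whereas WD-1 had 7 rises and 2 falls (shift -0.07).

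From R5/6 to R6, 9 members rose and 2 fell in W-1, against 3.03% and 5.88% of all genes and 6.53% and 3.26% at the level. In WD-1, 12 rose and 1 fell, against 5.74% and 9.4% of all genes and 11.5% and 4.79% at the level. The median log2 changes, 0.11 and 0.18, stood beside 0.13 and 0.14 in genes at the level. GLYMA_06G192100 rose in both. It went from at most 2.42 TMM CPM to 5.598, 13.5 and 8.08 in W-1, whereas WD-1 moved from at most 0.346 to 1.96, 12.04 and 2.17. No member rose and then fell past both tests of edgeR in either line, where the share in W-1 was 0.221% of all genes and 0.255% of genes at the level, with 0.123% and 0.163% for WD-1. The W-1 rises were 1 without W-1 R5/6 replicate 1, 5 without W-1 R5/6 replicate 3 and 2 without W-1 R6 replicate 2. Its falls were 1 without any one R5/6 replicate or R6 replicate 3, and 0 without R6 replicate 2. The WD-1 rises were 3 and 7 without WD-1 R5/6 replicate 1 and 2 and 0 without WD-1 R6 replicate 2, and the falls were 4 without WD-1 R6 replicate 3. With total counts W-1 had 2 rises and 16 falls (shift -0.52), whereas WD-1 had 3 rises and 28 falls (shift -0.66).

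Across G, R and the 3 field genotypes, 5 members rose at the first step in all 5 series: GLYMA_01G222600, GLYMA_15G135200, GLYMA_05G239400, GLYMA_11G213800 and GLYMA_20G017500. Of all genes 0.169% did so, and of genes at the level 0.489%. GLYMA_01G222600 had 5.38, 6.28 and 7.01 TMM CPM at G-T2 and 11.4 to 14.6 at G-T3. In R it had 4.66, 3.72 and 4.91 and then 8.76, 6.52 and 10.4, and in field WT 1.69, 2.64 and 1.70 and then 5.83, 7.96 and 8.99. No pair of these groups overlapped. GLYMA_11G213800 had 13.9, 15.4 and 10.8 at G-T2 and 33.6, 38.1 and 35.8 at G-T3, and in field WT 8.86, 15.1 and 8.96 and then 25.1, 24.8 and 31.9. The early rise passed the test in none of the 5 series in 21 members, GLYMA_08G229100 among them, against 70.3% of all genes and 51.4% of genes at the level.

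Few members passed a test between the field genotypes, as was also so for genes at the level. Averaged over the stages, W-1 against WT gave 0 members higher and 0 lower in edgeR, against 1.95% and 0.571% of all genes (2.47% and 0.683% at the level), with 14 members at an unadjusted p under 0.05 and 0 in each direction by DESeq2. The leave-out of WT R6 replicate 3 gave 1 in each direction. In WD-1 against WT, GLYMA_05G152300 was higher (log2 0.82 ± 0.23, edgeR adjusted p = 0.0414), and GLYMA_10G152300 (-1.36 ± 0.31, adjusted p = 0.0121) and GLYMA_03G082900 (-0.82 ± 0.23, adjusted p = 0.0427) were lower, against 2.13% and 0.907% of all genes (2.25% and 1.7% at the level). All 3 are named because of these values, outside the naming rule. The higher count was 0 without WT R5 replicate 1 or 3, WT R5/6 replicate 1 or 3, WT R6 replicate 2, WD-1 R5 replicate 1 or 2, WD-1 R5/6 replicate 2 or 3 or WD-1 R6 replicate 3, with any one of these dropped at a time. It was 2 without WT R5/6 replicate 2, WT R6 replicate 1 or WD-1 R6 replicate 2. The lower count was 1 without any one WT R5/6 replicate, WD-1 R5 replicate 1, WD-1 R5/6 replicate 1 or WD-1 R6 replicate 1, 4 without WD-1 R5/6 replicate 2 and 0 without WT R6 replicate 3.

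**Figure D5:**
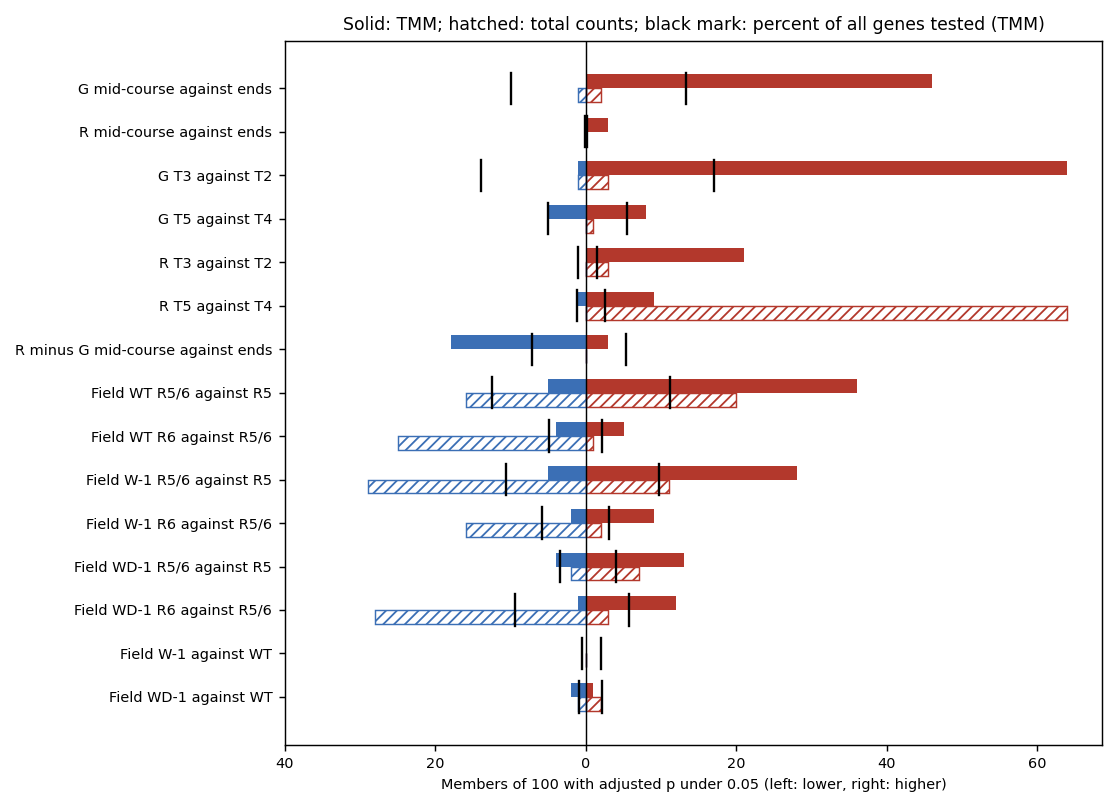
Members with an adjusted p under 0.05 in edgeR, of 100 (horizontal axis; right higher, left lower), in each comparison (vertical axis). Solid bars use TMM, hatched bars total counts, and black marks give the percent of all genes tested; solid bars reach 64 for G T3 against T2, where the hatched bar reaches 3.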

How the data were processed

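Per the labels, RNA was sequenced from 27 field and 36 greenhouse libraries in 21 groups of 3, from separate plots or plants. The authors deposited estimated counts per gene (expected counts, not normalized), per the file headers. Among the tools listed, without roles, in the submitters' processing notes are kallisto 0.43.1, R 3.6.3, FastQC 0.11.5 and sleuth 0.30.0; the genome build, annotation and strandedness: not given in the sources used here. Estimated counts can divide reads between near-identical genes, so single genes may hold reads of a copy. Greenhouse groups follow the codes of the deposited tables, as the report states. A row without a gene name, at most 4 counts, was left out.

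The members and lists were chosen with earlier results of these data known. Counts were rounded and tested in edgeR 4.0.16 (R 4.3.3) with filterByExpr, TMM and the 2-sided quasi-likelihood F-test, adjusted by Benjamini-Hochberg over all genes at 0.05. The 36 greenhouse libraries (34548 genes, transgenes included) and the 27 field libraries (38914) were fitted separately, so each set shared 1 estimate of spread. The mid-course contrast was the mean of T3 and T4 minus the mean of T2 and T5 on the log2 scale. The script was tested on simulated data. Alternatives were DESeq2 1.42.0, total counts in place of TMM, no low-count filter, shallow libraries left out, a replicate block, fewer libraries fitted and each library left out. Gene lists by function could not be matched to identifiers (0 of 55897 matched the RefSeq gene table of Glycine_max_v4.0) and were not run.

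Named genes were the 10 highest ranked, the 5 genes on either side of rank 100, both transgenes, and up to 3 of the highest and lowest called members of each G, R and field WT comparison. Other genes named were members of counts of 5 or fewer, or singled out after their values were seen. Same-numbered replicates did not deviate together (mean correlation 0.019 in the greenhouse and 0.008 in the field).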

Additional observations from a re-analysis of the deposited data

Results flagged for a closer look

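For the mid-course level, T3 and T4 against T2 and T5, a direct edgeR test of R against G found 18 members lower and 3 higher in R. Among genes at the rule's level 15.1% were lower and 4.81% higher, so the counts stood near those of like genes, and with total counts in place of TMM 0 members passed in each direction. The largest differences past the test (log2, R minus G) were 1.20 in GLYMA_06G166800, 1.14 in GLYMA_15G182600 and 0.60 in GLYMA_19G173300. On the lower side they were -1.13 in GLYMA_05G237900, -0.93 in GLYMA_11G141000 and -0.91 in GLYMA_13G258500. The G values include G-T5 replicate 2, which had no transgene count; without it 15 members were lower and 3 higher. Without the 2 R libraries in which GLYMA_13G021200 took under 20% of counts, 13 were lower and 3 higher.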

How the results depend on the processing

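The scaling mattered most. With total counts in place of TMM, members higher and lower numbered 2 and 1 in G mid-course against ends, 0 and 0 in R mid-course, 3 and 1 in G T3 against T2, 1 and 0 in G T5 against T4, 3 and 0 in R T3 against T2, 64 and 0 in R T5 against T4, and 0 and 0 in R minus G. In the field they were 20 and 16 in WT R5/6 against R5, 1 and 25 in WT R6 against R5/6, 11 and 29 and then 2 and 16 in W-1, 7 and 2 and then 3 and 28 in WD-1, and 2 and 1 in WD-1 against WT. Changes of sign were read only in named members, for changes that passed the test under either scaling, so other members may also have turned. In G T3 against T2 the shift, -0.60, was larger in size than the members' median log2 change with TMM, 0.52. Under total counts the log2 change turned to -0.18 in GLYMA_02G143100, -0.0719 in GLYMA_09G260600, -0.15 in GLYMA_09G281300 and -0.16 in GLYMA_19G043200 (G mid-course). It turned to -0.0732 in GLYMA_05G239400, -0.0538 in GLYMA_09G281300, -0.11 in GLYMA_12G122700 and -0.18 in GLYMA_19G173300 (G T3 against T2), and to 0.0838 in GLYMA_15G182600 (R T5 against T4).

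In the rule itself, 25 members stayed with TMM CPM, 51 and 46 with a minimum of 5 and 20 CPM, 44 without Wt libraries under 10 M counts, and, in an alternative chosen after seeing the data, 72 without the counts of GLYMA_13G021200. DESeq2 called 5 members higher in R mid-course, 7 higher in R minus G, and 7 lower at the first and 2 at the second step of WD-1, and 5 lower in WD-1 against WT. Without libraries under 10 M counts, G T5 against T4 had 4 higher and 1 lower, WD-1 had 5 higher and 1 lower at the first step and 3 lower at the second, W-1 against WT had 1 higher and 3 lower, and WD-1 against WT 4 and 4. Without G-T5 replicate 2, which goes against its code, G T5 against T4 had 5 higher and 1 lower. Without the 2 R libraries in which GLYMA_13G021200 took under 20% of counts (chosen after seeing the data), R mid-course had 1 higher and R T5 against T4 had 1 higher and 0 lower. Fitting only the libraries compared gave 13 higher in R T3 against T2, 0 lower in R T5 against T4, 5 higher in R minus G, 1 lower in W-1 R6 against R5/6, 7 higher and 2 lower at each step of WD-1, and 0 higher and 1 lower in WD-1 against WT. With no filter on low counts, WD-1 had 2 lower at each step. The cause was not tested in any of these.

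Replicate numbers share only a number, and with the replicate block W-1 R6 against R5/6 had 1 lower in place of 2 and R minus G 22 lower in place of 18; no other count moved by over 1.5 times. Leaving out each library in turn, the lowest and highest counts of members higher were 39 and 48 in G mid-course, 1 and 4 in R mid-course, 55 and 58 in G T3 against T2, 4 and 10 in G T5 against T4, 8 and 17 in R T3 against T2, 1 and 6 in R T5 against T4, and 3 and 6 in R minus G. The counts lower were 0 and 2, 0 and 0, 1 and 1, 1 and 12, 0 and 0, 0 and 1, and 11 and 28. In the field the counts higher were 28 and 36 and then 1 and 4 in WT, 18 and 22 and then 1 and 8 in W-1, 6 and 14 and then 0 and 15 in WD-1, 0 and 1 in W-1 against WT and 0 and 2 in WD-1 against WT. The counts lower there were 1 and 4, 1 and 3, 3 and 5, 0 and 2, 1 and 3, 1 and 4, 0 and 1, and 0 and 4. Members shared with the list ran from 27 to 79. Members near 10 CPM hold few counts in the libraries of 1.17 to 10 M, where small differences were not detectable.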
